A study of Mus musculus with 16 samples.

Results

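The genes described here mark lipid-associated macrophages and macrophages recruited from blood monocytes. They are Trem2, Gpnmb, Spp1, Cd9, Lgals3, Itgax, Mmp12, Ctss, Ly6c2 and Lyz2. They were chosen by symbol, as markers of these cells, with earlier results of these data known. All 10 were among the 41079 genes of the deposited count table, and all 10 were among the 16742 genes that passed the filter on low counts and were tested. Liver RNA came from 16 C57BL/6J mice aged 20 to 22 months, with 4 mice in each of 4 groups. Male and female CRE- controls carried a Gcgr gene flanked by loxP sites and no Cre. Male and female LKO mice carried the same floxed Gcgr and Albumin-Cre, a Cre driven in hepatocytes and not in macrophages, which deletes part of the glucagon receptor gene from early life on. The comparisons were LKO with CRE- in males, LKO with CRE- in females, the difference between these effects, and female with male CRE- controls.

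Resident macrophages of the liver, the Kupffer cells, lie in the sinusoids and clear particles and old red cells from blood. When they are lost or when hepatocytes are damaged or laden with fat, monocytes enter from blood and mature into macrophages, some of which take on a lipid-associated state with high TREM2, GPNMB, osteopontin and CD9. These cells gather around lipid droplets and dying hepatocytes and are known from steatohepatitis, from obese adipose tissue and from atherosclerotic plaques.

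The libraries held 33268424 to 56488920 counted reads. Levels are given as CPM, the count relative to the library total after TMM scaling, for replicates 1 to 4 of a group in that order. Gcgr, the deleted gene, was at 162, 208, 201 and 180.0 CPM in female CRE- mice and at 48.8, 132, 119 and 93.6 CPM in female LKO mice. Every female LKO liver lay below every female control, with replicate 1 the lowest, and the log2 fold change was -0.93 (adjusted p = 0.0443, SE 0.25 in edgeR, n = 4 per group). Only the fit without female LKO replicate 2 kept this call among the 8 fits that each left out 1 female, and the adjusted p in the others was between 0.0519 and 0.136. It was called in 4 of the 8 fits that changed the tool, scaling, filter or design, with adjusted p from 0.00807 in DESeq2 to 0.132 with each sex fitted alone. Male CRE- mice had 190.4, 193, 127 and 189.6 CPM and male LKO mice 117, 136, 129.9 and 160.3 CPM. In males the groups overlapped through control replicate 3, and the log2 fold change of -0.37 (SE 0.24) did not pass the test (adjusted p = 0.671). The Gcgr count covers exons outside the deleted segment, so reads of a shortened transcript, if present, would be counted too. The level therefore does not measure how complete the deletion was, and whether such a transcript was present was not tested.

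In females, Trem2 and Cd9 rose in LKO livers, Trem2 by 2.70 and Cd9 by 1.41 on the log2 scale, and all 10 genes had positive fold changes. These 2 calls compare with 2.09% of all genes tested that were called higher in female LKO mice and 4.24% called in either direction. At an unadjusted p under 0.05, 7 of the 10 were higher, against 12.3% of all genes tested, and in 5 of the 10 every female LKO liver lay above every control, against 5.20%. The median log2 fold change of the 10 genes in females was 1.30, beside 0.04 over all genes tested. Because the genes were chosen with earlier results of these data known, these shares describe the list and are not a test of it. In males, edgeR called 0 of the 10, against 0.454% of all genes, and so did DESeq2 and limma-voom. At an unadjusted p under 0.05, edgeR gave 1 of the 10 in males (Cd9), against 9.53% of all genes. The male groups separated upwards for 1 gene (Cd9), against 3.57% of all genes, and downwards for 0, against 2.92%. The male median was 0.19, beside -0.01 over all genes tested, with 6 fold changes above 0 and 4 below. With 1 male left out 3 to 9 of the 10 were above 0, 9 without control replicate 4 and 3 without LKO replicate 1, and in limma-voom 3 were. In whole liver, fewer or more cells of a type and less or more RNA per cell cannot be told apart, so none of these levels is a number of macrophages. The p-values set a difference between groups against the spread between these mice within groups, counting error included.

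**Figure D1:**
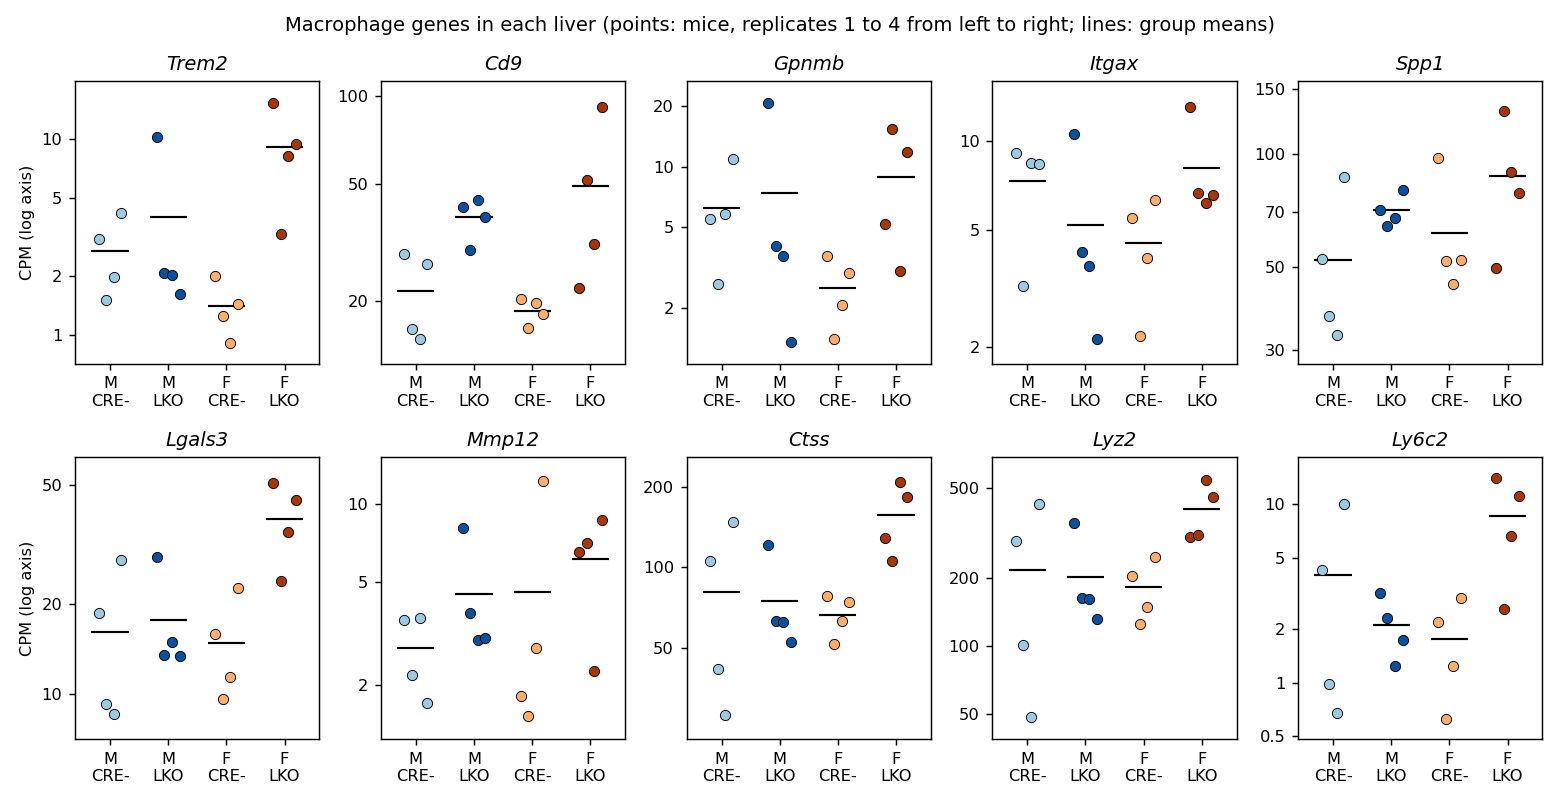
Level of each of the 10 macrophage genes in CPM on a log axis in male (M) and female (F) CRE- and LKO livers, with 1 point per mouse and a line at each group mean. For Trem2, Cd9, Lgals3, Ctss and Lyz2 all 4 female LKO livers lie above all 4 female controls, and in male LKO mice replicate 1, the leftmost point, is the highest for 8 of the 10 genes.

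Trem2 encodes a lipid-sensing surface receptor that signals through the adaptor TYROBP. Its levels were 2.0, 1.25, 0.910 and 1.44 CPM in female CRE- mice and 15.4, 3.29, 8.25 and 9.49 CPM in female LKO mice. All 4 female LKO livers were above all controls, with replicate 1 the highest and replicate 2 the nearest to the controls. The log2 fold change was 2.70 (adjusted p = 0.0249, SE 0.60). With single females left out it stayed between 2.34 and 2.98, and the call held in 4 of 8 fits. It was lost without control replicate 2 (adjusted p = 0.0868), control replicate 3 (0.0817), control replicate 4 (0.0679) or LKO replicate 1 (0.0655). Male Trem2 was 3.08, 1.51, 1.98 and 4.18 CPM in controls and 10.2, 2.08, 2.01 and 1.62 CPM in LKO mice. Male LKO replicate 1 was far above its group, and the other 3 lay within the control range. The male log2 fold change of 0.57 (adjusted p = 0.784, SE 0.56) was -0.52 without that mouse.

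Cd9 encodes a tetraspanin of the plasma membrane and exosomes that is also made by many cells other than macrophages. It was measured at 20.3, 16.2, 19.6 and 18 CPM in female controls and at 22.1, 52, 31.4 and 91.8 CPM in female LKO mice. The controls were close together, and the LKO livers spread from just above them, in replicate 1, to far above them in replicate 4. The female log2 fold change was 1.41 (adjusted p = 0.0340, SE 0.34) and was 0.92 without LKO replicate 4 (adjusted p = 0.0821). The call was also lost without control replicate 1 (adjusted p = 0.0578), replicate 2 (0.114), replicate 3 (0.0888) or replicate 4 (0.0834), and with each sex fitted alone (0.0972). Male controls had 29, 16, 14.9 and 26.8 CPM and male LKO mice 41.9, 29.9, 44.1 and 38.7 CPM. Here too every LKO liver exceeded every control, replicate 2 by the least, but the log2 fold change of 0.83 (SE 0.34) missed the threshold (adjusted p = 0.424, unadjusted p = 0.0252). Cd9 was the only one of the 10 genes whose groups separated in both sexes.

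Gpnmb, a transmembrane glycoprotein of lysosomes and phagosomes, stood at 3.59, 1.40, 2.06 and 2.99 CPM in female controls and at 5.19, 15.3, 3.04 and 11.9 CPM in female LKO mice. Replicates 2 and 4 of the LKO group were high, replicate 1 was above the controls by less, and replicate 3 fell among the controls. Its female log2 fold change of 1.81 (SE 0.70) did not pass edgeR's test (adjusted p = 0.140), while DESeq2 gave an adjusted p of 0.0464. In males Gpnmb was 5.50, 2.63, 5.82 and 10.9 CPM in controls and 20.6, 4.04, 3.63 and 1.35 CPM in LKO mice. Male LKO replicate 1 held the highest level of all 16 livers and replicate 4 of that group the lowest. The male log2 fold change was 0.25 (adjusted p = 0.931, SE 0.68) with all mice and -1.07 without replicate 1 (adjusted p = 0.667).

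Itgax encodes the integrin CD11c, which is carried by dendritic cells and by lipid-associated macrophages. Female controls had 5.48, 2.18, 4.0 and 6.31 CPM and female LKO mice 13, 6.66, 6.13 and 6.57 CPM. LKO replicate 1 was set apart at the top, and control replicate 4 lay within the range of the other 3 LKO livers. Neither the female log2 fold change of 0.85 (adjusted p = 0.306, SE 0.46) nor the male one of -0.50 (adjusted p = 0.768, SE 0.46) passed the test. Male Itgax was 9.11, 3.21, 8.42 and 8.36 CPM in controls and 10.6, 4.19, 3.75 and 2.13 CPM in LKO mice. The male groups overlapped, with LKO replicate 1 above all controls and LKO replicate 4 below all of them. The male value was -1.13 without LKO replicate 1 (adjusted p = 0.466), -0.26 without LKO replicate 4 and -0.91 in limma-voom, and the female value was 0.54 without LKO replicate 1.

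Spp1, or osteopontin, is a secreted phosphoprotein made by lipid-associated macrophages and also by cholangiocytes and activated stellate cells. Its levels in females were 98, 51.7, 45.1 and 52.1 CPM in controls and 49.7, 131, 89.9 and 78.6 CPM in LKO mice. Control replicate 1 was higher than all LKO livers but replicate 2, and LKO replicate 1 fell among the controls. Males had 52.4, 36.9, 32.8 and 87.2 CPM in controls and 70.9, 64.5, 67.6 and 80.2 CPM in LKO mice. The male LKO livers were close to each other and sat above 3 of the 4 controls. The log2 fold changes of 0.50 in females (adjusted p = 0.410, SE 0.33) and 0.44 in males (adjusted p = 0.708, SE 0.33) did not pass the test. In females the value was 0.81 without control replicate 1 (adjusted p = 0.169), 0.24 without LKO replicate 2 and 0.77 in limma-voom. In males it was 0.80 without control replicate 4 (adjusted p = 0.311) and 0.25 without control replicate 3.

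Lgals3, which encodes the galactoside-binding lectin galectin-3, was at 15.9, 9.58, 11.4 and 22.5 CPM in female controls and 50.7, 23.9, 34.8 and 44.3 CPM in female LKO mice. The groups did not overlap, though LKO replicate 2 lay just above control replicate 4. Its log2 fold change of 1.37 (SE 0.39) missed the threshold in edgeR (adjusted p = 0.0563), passed it without LKO replicate 2 (0.0321) and passed it in DESeq2 (0.0102). Limma-voom and the fit with the replicate number as a block also called Lgals3 in females. Male Lgals3 was 18.6, 9.27, 8.55 and 28 CPM in controls and 28.7, 13.5, 14.9 and 13.4 CPM in LKO mice, with a log2 fold change of 0.13 (adjusted p = 0.940, SE 0.38). In males the groups overlapped, and LKO replicate 1 and control replicate 4 were the highest livers. The small male value changed sign without LKO replicate 1 (-0.23), control replicate 2 (-0.063) or control replicate 3 (-0.10).

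Mmp12 encodes the elastase secreted by macrophages. In females it was 1.82, 1.52, 2.78 and 12.2 CPM in controls and 6.49, 7.06, 2.27 and 8.68 CPM in LKO mice. Control replicate 4 was the highest of all 8 females and LKO replicate 3 fell among the other controls. The female log2 fold change of 0.42 (adjusted p = 0.740, SE 0.59) was 1.60 without that control (adjusted p = 0.0914), between 0.12 and 0.69 with any other female left out and 0.78 in limma-voom. Male mice had 3.55, 2.18, 3.64 and 1.71 CPM as controls and 8.10, 3.79, 2.98 and 3.03 CPM as LKO mice. LKO replicates 1 and 2 exceeded all male controls and the other 2 lay among them, for a log2 fold change of 0.69 (adjusted p = 0.748, SE 0.59), which was 0.22 without LKO replicate 1.

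Ctss, the lysosomal protease cathepsin S of antigen-presenting cells, reached 78.1, 51.5, 62.8 and 74.1 CPM in female controls and 129, 106, 209 and 183 CPM in female LKO mice. The groups were apart, with replicates 3 and 4 the highest of the LKO livers. The log2 fold change was 1.23 (adjusted p = 0.0987, SE 0.42 in edgeR and 0.0336 in DESeq2). Male Ctss was 106, 41.5, 28 and 148 CPM in controls and 122, 62.8, 62.3 and 52.7 CPM in LKO mice. The male controls spanned the whole LKO range, from replicate 3 at the bottom to replicate 4 at the top, and the log2 fold change was -0.11 (adjusted p = 0.953, SE 0.42). Without male control replicate 4 it was 0.36, and it was also above 0 without control replicate 1 (0.036) or LKO replicate 4 (0.008).

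Lyz2 encodes lysozyme M, a bactericidal enzyme of monocytes, macrophages and neutrophils. Female controls were at 204, 125, 149 and 248 CPM and female LKO mice at 303, 311, 542 and 455 CPM. All LKO livers exceeded all controls, and the order of the 4 differed from that of Trem2, with replicate 1 the lowest. Its log2 fold change of 1.15 (SE 0.51) did not pass edgeR's test (adjusted p = 0.198), whereas limma-voom with sample quality weights gave 0.0233. In males Lyz2 was 292, 101, 48.6 and 426 CPM in controls and 349.7, 162, 161 and 131 CPM in LKO mice. The male controls again held both the lowest liver, replicate 3, and the highest, replicate 4, and the log2 fold change was -0.11 (adjusted p = 0.963, SE 0.50). It turned positive without control replicate 4 (0.45), control replicate 1 (0.054) or LKO replicate 4 (0.029).

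Ly6c2, which encodes the surface antigen that marks inflammatory monocytes before they mature in tissue, was at 2.20, 0.623, 1.25 and 2.99 CPM in female controls and 14.1, 2.59, 6.64 and 11.1 CPM in female LKO mice. Replicates 1, 3 and 4 of the LKO group were above all controls, and replicate 2 was below control replicate 4. The log2 fold change of 2.29 (SE 0.73) missed the threshold (adjusted p = 0.0823), passed it without LKO replicate 2 (0.0430) and passed it in DESeq2 (0.0121). Limma-voom and the fit with the replicate number as a block also called Ly6c2 in females. Male controls had 4.30, 0.980, 0.676 and 10 CPM and male LKO mice 3.16, 2.31, 1.24 and 1.73 CPM. All male LKO livers lay within the range of the controls, where replicates 1 and 4 were high and the other 2 low. The male log2 fold change of -0.92 (adjusted p = 0.716, SE 0.71) was 0.085 without male control replicate 4.

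**Figure D2:**
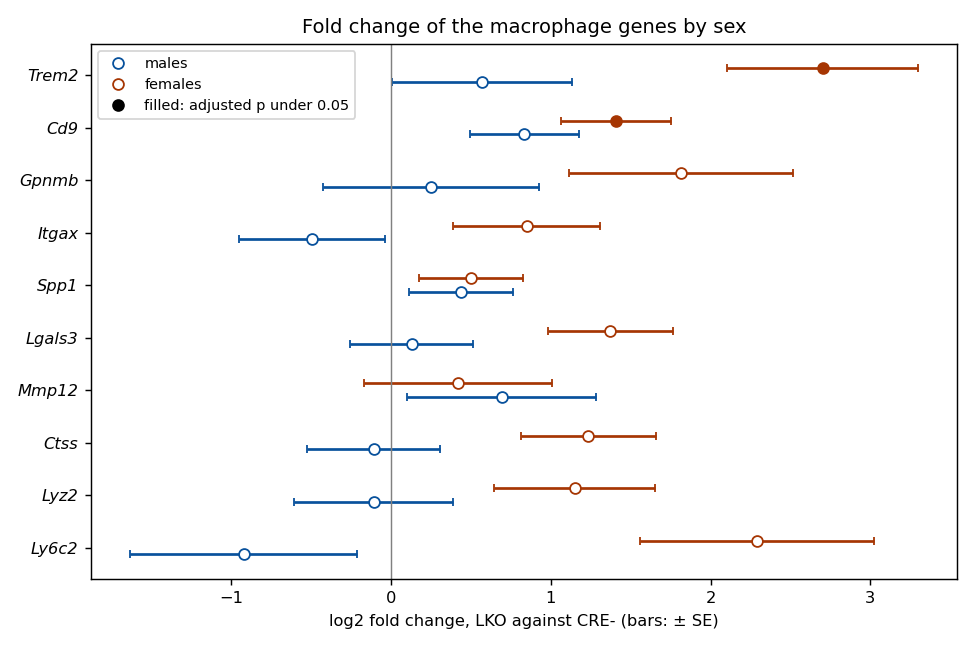
Log2 fold change of the 10 macrophage genes in LKO against CRE- livers, males and females, with bars of 1 SE from edgeR's joint fit of 16 livers. Filled points passed an adjusted p of 0.05, which were Trem2 (2.70) and Cd9 (1.41) in females.

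The difference between the female and the male effect was tested as an interaction. EdgeR called 0 of the 10 genes, and 0% of all genes tested were called. At an unadjusted p under 0.05, 4 of the 10 had the larger effect in females (Trem2, Lgals3, Ctss and Ly6c2), against 9.28% of all genes tested. With 1 mouse left out this count was 2 to 7, with the 7 found without male LKO replicate 1, and in limma-voom it was 7. Ly6c2 had a log2 difference of 3.21 (adjusted p = 0.204, SE 1.02), Trem2 one of 2.13 (adjusted p = 0.241, SE 0.81) and Gpnmb one of 1.56 (adjusted p = 0.415, SE 0.96). Without male LKO replicate 1 these were 3.22 for Trem2 and 2.88 for Gpnmb. Without male control replicate 4 they were lower, at 2.20 for Ly6c2, 1.84 for Trem2 and 1.14 for Gpnmb. For Mmp12 alone was the difference below 0, at -0.27 (SE 0.83), and it was above 0 without female control replicate 4 (0.93), male LKO replicate 1 (0.20) or female LKO replicate 3 (0.014). The Spp1 difference of 0.06 changed sign without male control replicate 4 (-0.30), female control replicate 2 (-0.014), female control replicate 3 (-0.062) or female LKO replicate 2 (-0.20). DESeq2 called 1 of the 10 (Ly6c2, adjusted p = 0.0407) and limma-voom 0. The calls of Trem2 and Cd9 in females alone are therefore not shown to differ from the male effects.

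Female CRE- controls were then set beside male CRE- controls. Of the 10 genes, edgeR, DESeq2 and limma-voom each called 0, against 0.920% of all genes tested in edgeR. At an unadjusted p under 0.05, edgeR gave 0 of the 10, DESeq2 1 and limma-voom 3, against 12.7%, 14.7% and 16.3% of all genes tested. The median log2 difference was -0.27, beside -0.01 over all genes tested, and 8 of the 10 values were below 0, or 5 of 10 without male control replicate 4. Gpnmb was at -1.31 (adjusted p = 0.444, SE 0.69). Male controls replicates 2 and 3 were low and replicates 1 and 4 high for Lgals3, Ctss, Ly6c2 and Lyz2, so the male control range of Lyz2, 48.6 to 426 CPM, held all 4 female controls, at 125 to 248 CPM.

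Levels were compared between genes per length of exon, as RPKM, the CPM divided by the kilobases of exon. Over the 16 livers Lyz2 was the most abundant at 237 RPKM, followed by Ctss at 65.3, Spp1 at 41.0, Cd9 at 26.8 and Lgals3 at 15.5 RPKM. The order of these 5 was the same in the means of each of the 4 groups. The remaining 5, Ly6c2, Trem2, Gpnmb, Itgax and Mmp12, were lower in every group, and their order differed between groups. Ly6c2 was above Trem2 in female LKO mice (9.32 and 7.95 RPKM) and below it in male LKO mice (2.28 and 3.48 RPKM), and Gpnmb was the lowest in female CRE- mice (0.66 RPKM). Summed over the 10 genes, female controls had 431, 261, 299 and 441 CPM and female LKO mice 609, 658, 934 and 900.1 CPM. These sums did not overlap, and Lyz2 was the largest term in every liver. Male sums were 523, 215, 153 and 751 CPM in controls and 666, 349, 363 and 326 CPM in LKO mice, where control replicate 4 and LKO replicate 1 were the highest of their groups.

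Single mice were high or low for many of the genes at once. Male LKO replicate 1 was the highest of its group for 8 of the 10 genes, and male control replicate 4 for 7. Female control replicate 2 was the lowest of its group for 8. In female LKO mice no liver led throughout. Replicate 1 was highest for Trem2, Lgals3, Itgax and Ly6c2 and lowest for Spp1, Cd9 and Lyz2. Replicate 2 was highest for Gpnmb and Spp1 and lowest for Trem2, Lgals3, Ctss and Ly6c2.

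The likeness of the genes was described by Pearson's r of log2 CPM within groups, with group means removed, over 16 livers that share libraries and depth. Of 45 pairs 44 were above 0, and the median r was 0.47 (range -0.27 to 0.98). Ctss and Lyz2 were the most alike (r = 0.98, n = 16), followed by Lgals3 and Ly6c2 (r = 0.93). Spp1 and Mmp12 were the pair below 0 (r = -0.27), and the 2 genes called in females, Trem2 and Cd9, hardly moved together within groups (r = 0.03).

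Other genes were ranked by Pearson's r with a member over the 16 livers, group differences included. For Trem2 the 5 most alike were Ptpro (r = 0.94), Tlr1 (0.93), Lair1 (0.93), Itgam (0.93) and Tnfrsf11a (0.92), each with a female log2 fold change between 1.87 and 2.57 and a male one between -0.45 and -0.008, where that of Trem2 was 0.57. For Ly6c2 they were Ly6a2, Arhgap27, AB124611, Tnfaip8l2 and Ssbp4, all with r at 0.95. The genes most like Gpnmb were Sirpb1a (r = 0.85), Nol3 (0.81), Bcl2l11 (0.77), Gpx8 (0.76) and Klra17 (0.76). Of the 5 genes named for Trem2, Itgam encodes an integrin subunit of monocytes and neutrophils.

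Tyrobp, the adaptor of TREM2, was at 25.7, 21.2, 23.6 and 39.1 CPM in female controls and 40.6, 39.9, 78.1 and 64.2 CPM in female LKO mice. The female groups did not overlap, with LKO replicate 2 just above control replicate 4, and the log2 fold change of 1.02 (adjusted p = 0.243, SE 0.49) did not pass the test in edgeR and passed it in limma-voom (adjusted p = 0.0267). Of 20 genes of lysosome and lipid handling, which include Tyrobp, Cd63 and Lpl rose in females and 0 were called lower, with a median log2 fold change of -0.01, while DESeq2 called 3 higher and limma-voom 4 higher and 1 lower. Over all 16742 genes tested, edgeR called 2.09% higher in females, DESeq2 1066 genes and limma-voom 1073. Lpl, which encodes lipoprotein lipase, had a log2 fold change of 2.57 (adjusted p = 0.0474, SE 0.69) and was called in 2 of the 8 fits with a female left out. Cd63, a tetraspanin of late endosomes related to Cd9, was 9.58, 7.94, 11.1 and 17.9 CPM in female controls and 19.5, 35.7, 36.4 and 66.8 CPM in LKO mice. As for Cd9, replicate 1 was the lowest and replicate 4 the highest of the LKO livers, and the groups were apart (log2 fold change 1.77, SE 0.37, adjusted p = 0.0201). The Cd63 call was lost without female control replicate 2 (adjusted p = 0.0819) or replicate 3 (0.0669), and with each sex fitted alone (0.0634). Male Cd63 was 10.5, 7.26, 13.8 and 18.3 CPM in controls and 48.9, 28.7, 25.2 and 30.5 CPM in LKO mice, again apart in every liver (log2 fold change 1.42, SE 0.36, adjusted p = 0.118, unadjusted p = 0.00123). DESeq2 (adjusted p = 0.0155) and limma-voom (0.0234) called Cd63 higher in males, where edgeR did not. The list's most abundant gene, Apoe, is made mainly by hepatocytes, and its female log2 fold change was -0.72 (adjusted p = 0.153).

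Genes of monocyte recruitment had positive fold changes in females in 17 of 17 genes tested, with 5 called higher (Ms4a6c, Chil3, Itgam, Cybb and Fcgr1) and a median of 1.85. DESeq2 called 10 of the 17 higher in females and limma-voom 11, and 14 were higher at an unadjusted p under 0.05 in edgeR. Of all 16742 genes tested, 8891 had positive fold changes in females and edgeR called 2.09% higher. At an unadjusted p under 0.05, 12.3% of all genes were higher in edgeR. DESeq2 called 1066 of all genes higher in females and limma-voom 1073. In males 16 of the 17 recruitment genes were below 0, the median was -0.30 and 0 were called by edgeR, DESeq2 or limma-voom. At an unadjusted p under 0.05 in edgeR, 2 of the 17 were lower in males, against 4.74% of all genes tested. For the sex difference, edgeR and limma-voom called 0 of the 17 and DESeq2 called 7, against 2.22% of all genes in DESeq2. With single females left out, the call was kept in 4 of 8 fits for Ms4a6c, 3 for Chil3, 3 for Itgam, 2 for Cybb and 1 for Fcgr1. Without LKO replicate 1 the log2 fold change was 1.55 instead of 2.74 for Ms4a6c, 1.26 instead of 2.14 for Cybb and 1.25 instead of 1.99 for Fcgr1. Ccr2, the chemokine receptor with which monocytes leave the marrow, was 7.63, 3.11, 4.17 and 5.24 CPM in female controls and 42.8, 6.11, 11.5 and 12 CPM in female LKO mice. LKO replicate 1 was far above the rest and replicate 2 fell among the controls (log2 fold change 1.85, SE 0.52, adjusted p = 0.0546 in edgeR and 0.00594 in DESeq2). Csf1r, the growth factor receptor of all macrophages, was 111, 82.7, 91.5 and 159 CPM in female controls and 535, 131, 329 and 162 CPM in LKO mice, where replicates 1 and 3 were high and replicate 2 lay among the controls (log2 fold change 1.38, SE 0.44, adjusted p = 0.0809 in edgeR and 0.0197 in DESeq2). The summed level of this list was 2499, 1649, 1675 and 1559.9 CPM in female controls and 3389, 1604, 2262 and 2082 CPM in LKO mice, and its most abundant gene was Fn1, which hepatocytes also make.

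The summed level of the Kupffer cell markers was 933, 907, 895 and 1237 CPM in female controls and 3763, 1133, 2179.9 and 1239 CPM in female LKO mice. LKO replicate 1 held the highest sum of all 16 livers and replicate 3 the next, while replicate 2 fell among the controls and replicate 4 was just above them. In the sum of the 10 genes replicate 1 was the lowest LKO liver, and replicates 2 and 4 were above all female controls. Of 12 markers 1 was called higher in females (Adgre1) and 0 lower, with a median of 1.18, and Cd5l was the most abundant. DESeq2 and limma-voom each called 6 higher (Marco, Cd5l, Folr2, Timd4, Adgre1 and Vsig4) and 1 lower (Id3), and the unadjusted p in edgeR was under 0.05 for 8 markers above 0 and 1 below. Of all 16742 genes tested, edgeR called 2.09% higher in females, and 12.3% were higher at an unadjusted p under 0.05. DESeq2 called 1066 of all genes higher and limma-voom 1073. Adgre1, which encodes F4/80, had a log2 fold change of 2.15 (adjusted p = 0.0451, SE 0.57), which was 1.21 without LKO replicate 1 (adjusted p = 0.189) and kept its call in 2 of the 8 fits with a female left out. Clec4f, a lectin specific to Kupffer cells in mouse liver, was 214, 172, 172 and 270.0 CPM in female controls and 845, 188, 447 and 224 CPM in LKO mice (log2 fold change 1.04, adjusted p = 0.160). Timd4, a receptor of long-lived Kupffer cells, was 11.6, 8.70, 9.15 and 15.3 CPM and 81, 18.5, 48.8 and 15.6 CPM in the same groups (log2 fold change 1.87, adjusted p = 0.0641 in edgeR and 0.00805 in DESeq2). Replicate 1 was the highest LKO liver for both of these markers, as it was for Trem2, Lgals3, Itgax and Ly6c2, and the part of resident cells in the levels of the 10 genes was not tested.

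Neutrophil genes, whose cells also carry lysozyme, summed to 45.3, 24.9, 19.3 and 56.9 CPM in female controls and 173, 52.1, 99.4 and 746 CPM in female LKO mice. Replicate 4 was far above the others, and replicate 2 fell within the control range. Of 12 neutrophil genes tested 5 were called higher in females (Mmp8, Retnlg, Mpo, Ltf and Ngp), with a median of 3.54, while DESeq2 called 10 higher, these 5 among them. Limma-voom called 4 (Mmp9, S100a9, Csf3r and Retnlg), so that Mmp8, Mpo, Ltf and Ngp were not called there. Of all 16742 genes tested, edgeR called 2.09% higher in females, DESeq2 1066 genes and limma-voom 1073. In males 12 of 12 neutrophil genes were below 0 with a median of -2.23. Among these, edgeR and limma-voom called 0 in males and DESeq2 called 5 lower, where DESeq2 called 2.02% of all genes in either direction. At an unadjusted p under 0.05 in edgeR, 9 of the 12 were lower in males, against 4.74% of all genes tested. For the sex difference, edgeR and limma-voom called 0 of the 12 and DESeq2 called 10, against 2.22% of all genes in DESeq2. The female calls were kept in 3 of 8 fits with a female left out for Mpo, in 2 for Mmp8, Retnlg and Ltf and in 1 for Ngp. The log2 fold change of Ngp was 2.79 without LKO replicate 4 instead of 4.68, and that of Mmp8 was 1.85 in limma-voom instead of 3.50. S100a9 was the most abundant, and Ly6g, a defining marker, was too low to test, at 0.151, 0.199, 0.165 and 1.91 CPM in female LKO mice. Male control replicates 1 and 4 had the highest male sums, 117 and 235 CPM, and they were also the 2 male controls with the highest Lyz2, Ctss, Lgals3 and Ly6c2. The part of neutrophils in these levels was not tested.

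**Figure D3:**
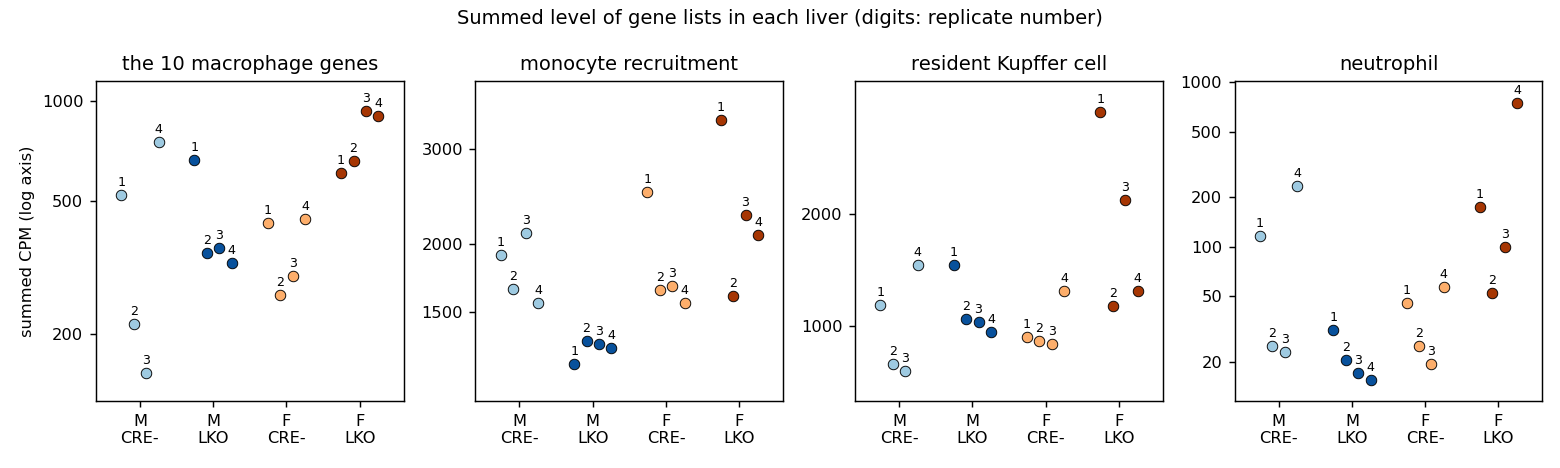
Summed CPM, on a log axis, of the 10 macrophage genes and of the lists for monocyte recruitment, resident Kupffer cells and neutrophils in each male (M) and female (F) liver, with digits for replicate numbers. Female LKO replicate 1 has the highest sum of Kupffer cell genes (3763 CPM) and replicate 4 that of neutrophil genes (746 CPM).

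Other cells of the liver were covered by 7 lists. In females 0 of 8 dendritic cell genes, 0 of 10 T and NK cell genes, 0 of 6 B and plasma cell genes and 0 of 10 stellate cell and fibroblast genes were called by edgeR, with 0, 1, 1 and 0 of them higher at an unadjusted p under 0.05 and medians of 0.43, 0.26, 0.59 and 0.32. DESeq2 called 0 in each of these lists, and limma-voom called 1 dendritic cell gene and 2 T and NK cell genes higher and 1 stellate cell gene lower. Of 10 cholangiocyte genes 1 was called higher (Tspan8, 2.66), with a median of 0.24, and of 8 endothelial genes 1 (Cdh5, 0.79), with a median of 0.52, and these calls were kept in 3 and 4 of the 8 fits with a female left out. Tspan8 was 1.57 without LKO replicate 4. DESeq2 called 1 cholangiocyte and 2 endothelial genes higher and limma-voom 1 of each. Over all 16742 genes tested, edgeR called 350 higher in females and 360 lower. At an unadjusted p under 0.05, 2054 of all genes were higher in females and 1530 lower. The 8 hepatocyte genes were all below 0 in females, with a median of -0.73, 0 called by edgeR and 3 lower at an unadjusted p under 0.05, while DESeq2 and limma-voom each called 2 lower. Their sum, led by Alb, was 115444, 113562, 119928 and 135219 CPM in female controls and 50116, 92346, 91241 and 69233 CPM in LKO mice. All 4 sums in LKO females were below all 4 in controls, lowest in replicate 1. Since CPM is relative to the library, the part of a lower hepatocyte share in the higher levels of the 10 genes was not tested.

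Lyz2 and Ly6c2 have close copies in the genome, and reads that map to more than 1 place were left out of the counts. Of the stretches of 150 bases in Lyz2 transcripts 0% were identical in transcripts of Lyz1, and of those in Ly6c2 transcripts 2.46% were identical in Ly6c1. For stretches of 25 bases the shares were 16.8% and 44.2%. Lyz1 was low, at 2.62, 0.876, 1.08 and 3.21 CPM in female controls and 1.69, 2.72, 6.88 and 3.33 CPM in female LKO mice, and its female log2 fold change was 0.91 (adjusted p = 0.423). Ly6c1, an endothelial gene, was 0.488, 0.311, 0.670 and 0.561 CPM and 0.176, 1.40, 0.915 and 4.11 CPM in the same groups (log2 fold change 1.69, adjusted p = 0.244). Its highest liver was LKO replicate 4, whereas that of Ly6c2 was replicate 1, and how far reads of the copies were split was not tested.

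On GRCm39 the 2 genes called in females lie on different chromosomes, Trem2 at chr17:48653429-48659304 on the plus strand and Cd9 at chr6:125437229-125471723 on the minus strand. Promoters of all 10 genes, 300 bases that span the start, were taken from RefSeq on GRCm38.p6, which gave 13, with 2 each for Spp1, Mmp12 and Ly6c2. They were searched on both strands for GAGGAA, the core bound by the myeloid factor PU.1, for TGACTCA, the AP-1 motif, and for CACGTG, the E-box of the MITF and TFE factors. GAGGAA stood in at least 1 promoter of 5 of the 10 genes (Trem2, Spp1, Mmp12, Ctss and Ly6c2), TGACTCA in 3 (Gpnmb, Itgax and Mmp12) and CACGTG in 0. Of all 27025 genes with promoters of this length, 31.3%, 5.95% and 8.09% had the motif in at least 1 promoter. The promoters of Trem2 (chr17:48346151-48346450, plus strand) and Cd9 (chr6:125494711-125495010, minus strand) are shown because these genes were called, and those of Ctss (chr3:95526536-95526835, plus strand) and Ly6c2 (chr15:75111922-75112221, minus strand) because each holds GAGGAA 2 times, as 4.82% of all promoters do at least. Capitals mark GAGGAA or its complement TTCCTC, and a match is a description of these letters and not of binding.
Trem2: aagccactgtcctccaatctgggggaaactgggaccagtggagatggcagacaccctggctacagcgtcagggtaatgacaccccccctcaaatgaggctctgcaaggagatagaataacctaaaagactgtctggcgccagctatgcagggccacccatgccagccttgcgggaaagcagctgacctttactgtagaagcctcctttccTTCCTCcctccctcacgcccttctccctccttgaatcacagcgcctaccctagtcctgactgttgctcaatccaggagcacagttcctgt
Cd9: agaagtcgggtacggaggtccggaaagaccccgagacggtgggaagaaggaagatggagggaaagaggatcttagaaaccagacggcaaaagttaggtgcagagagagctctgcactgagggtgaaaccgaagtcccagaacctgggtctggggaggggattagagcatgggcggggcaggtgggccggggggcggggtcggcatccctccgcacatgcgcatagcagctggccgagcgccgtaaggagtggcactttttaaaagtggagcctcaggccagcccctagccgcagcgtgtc
Ctss: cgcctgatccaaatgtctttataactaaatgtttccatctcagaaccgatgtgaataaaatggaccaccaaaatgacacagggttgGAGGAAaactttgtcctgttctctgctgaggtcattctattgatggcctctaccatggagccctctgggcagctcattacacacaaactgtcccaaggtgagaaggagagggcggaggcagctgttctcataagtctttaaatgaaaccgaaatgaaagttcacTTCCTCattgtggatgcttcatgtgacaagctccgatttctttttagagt
Ly6c2: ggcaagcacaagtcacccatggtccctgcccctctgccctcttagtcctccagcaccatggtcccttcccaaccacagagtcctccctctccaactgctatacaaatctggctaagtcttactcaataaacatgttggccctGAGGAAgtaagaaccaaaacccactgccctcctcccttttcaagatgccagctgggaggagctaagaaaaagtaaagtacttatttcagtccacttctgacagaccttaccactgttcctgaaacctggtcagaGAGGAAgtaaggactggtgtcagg
The Trem2 motif begins at position -40 from the start, on the minus strand of the promoter, and the Cd9 promoter holds none of the 3 motifs.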

How the data were processed

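The authors aligned paired reads of poly-A selected liver RNA to GRCm39 with STAR 2.7.1a and counted them per gene with featureCounts of Subread 2.0.6, according to the submitters' processing notes and the file header. The deposited values are the raw count of reads per gene and library, with both mates of a pair counted, strand used and multiply mapped reads left out. No library was dropped or shared identical counts with another.

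From these counts, genes were filtered by filterByExpr (minimum count 10), scaled by TMM and fitted together over 16 libraries and 4 groups with edgeR 4.0.16 in R 4.3.3, using the quasi-likelihood test. P-values were adjusted by Benjamini-Hochberg over all 16742 genes tested, and calls had an adjusted p under 0.05. Each SE given for edgeR was derived as the absolute log2 fold change divided by the square root of the F statistic of that test. Correlations used log2 CPM with a prior count of 2. Alternatives were DESeq2 1.42.0, limma-voom (limma 3.58.1) with sample quality weights, each sex fitted alone, other scalings and filters, the replicate number as a block, and each mouse left out. Scripts were tested on simulated counts. The first draw exceeded its limit on false calls for the sex difference. The limit was then set, after further draws were seen, on their mean. The mean share of false calls was slightly above 0.05 for the sex difference and below it in the other comparisons.

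The 10 genes and the other lists (lysosome and lipid handling, monocyte recruitment, Kupffer cell, dendritic cell, neutrophil, T and NK cell, B and plasma cell, cholangiocyte, stellate cell and fibroblast, endothelium, hepatocyte) were chosen with earlier results of these data known. Named beside the 10 genes were called genes of each list (at most 6), its most abundant gene, a fixed set of markers, and the 5 genes most like Trem2, Gpnmb and Ly6c2. The genes most like Spp1 are not reported here. Ly6g was named after its values were seen.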

Additional observations from a re-analysis of the deposited data

Results flagged for a closer look

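In each of the 4 groups, the mouse at either end was compared with the other 3 by Dixon's ratio of its gap to the range, for each of the 10 genes, which makes 40 groups of 4. The ratio passed its 95% critical value in 10 of them (25%), against 8.09% of such groups over all genes tested. Chance alone passes about 1 group in 20 where values are normally distributed, which CPM values need not be. Of the 10, 6 were the same mouse, male LKO replicate 1, and the genes of a mouse are not independent. It had 10.2 CPM of Trem2 (1.62 to 2.08 in the other male LKO mice), 20.6 CPM of Gpnmb (1.35 to 4.04), 28.7 CPM of Lgals3 (13.4 to 14.9), 8.10 CPM of Mmp12 (2.98 to 3.79), 122 CPM of Ctss (52.7 to 62.8) and 349.7 CPM of Lyz2 (131 to 162). Its hepatocyte genes summed to 66046 CPM, against 81762 to 93734 CPM in the other male LKO mice, and the part of this was not tested.

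Itgax was set apart 2 times, at 3.21 CPM in male CRE- replicate 2, below the others at 8.36 to 9.11 CPM, and at 13 CPM in female LKO replicate 1, above the others at 6.13 to 6.66 CPM. Female CRE- replicate 1 had 98.0 CPM of Spp1, against 45.1 to 52.1 CPM in the other controls. Female CRE- replicate 4 had 12.2 CPM of Mmp12, against 1.52 to 2.78 CPM.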

How the results depend on the processing

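Trem2 was called in females in all 8 fits that changed the tool, scaling, filter or design, and Cd9 in 7 of 8. Of the 10 genes, females had 2 called in the edgeR fit, 6 with DESeq2 (Trem2, Gpnmb, Cd9, Lgals3, Ctss and Ly6c2), 6 with limma-voom and sample quality weights (Trem2, Cd9, Lgals3, Ctss, Ly6c2 and Lyz2) and 1 with each sex fitted alone (Trem2), and with 1 mouse left out 0 to 4. In males and between controls the count was 0 in every fit run, and in the sex difference it was 0 except 1 with DESeq2. All 10 fold changes in females were above 0 in every fit run. Over all genes tested, DESeq2 called 339 genes in males, 1816 in females, 371 for the sex difference and 509 between controls, where edgeR called 76, 710, 0 and 154. Limma-voom called 148, 1976, 29 and 329. Each sex fitted alone gave 119 in females, the absence of a filter 12 for the sex difference, and 10 counts in every library 78 between controls. With 1 mouse left out, these counts were 26 to 49 in males, 87 to 1310 in females, 0 to 14 for the sex difference and 68 to 149 between controls.

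The replicate numbers were not used to pair the mice, since the labels do not say what they mark and not every pair was alike. For some mice the number in the library name differs from the replicate number, and pairing by library number was not tested. Of 16 pairs of groups and numbers, 10 had correlated deviations above 0.1 (range -0.14 to 0.33) and 8 were most alike with their own number. With the replicate block, females had 4 of the 10 called (Trem2, Cd9, Lgals3 and Ly6c2) and 1244 of all genes, and the male fold changes of Gpnmb (-0.016), Ctss (0.027) and Lyz2 (0.10) changed sign.

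Limma-voom reversed Trem2 (-0.25), Gpnmb (-0.69) and Lgals3 (-0.13) in males, and Mmp12 for the sex difference (0.33) and between controls (-0.28). With 1 mouse left out, signs changed in males for Ctss (-0.47 to 0.36), Lyz2 (-0.54 to 0.45), Gpnmb (-1.07 to 0.67), Lgals3 (-0.23 to 0.54), Ly6c2 (-1.30 to 0.085) and Trem2 (-0.52 to 0.86), for the sex difference for Spp1 (-0.30 to 0.38) and Mmp12 (-0.57 to 0.93), and between controls for Lgals3 (-0.44 to 0.29), Ctss (-0.58 to 0.19), Lyz2 (-0.61 to 0.31), Spp1 (-0.074 to 0.60) and Mmp12 (-0.48 to 1.02). The cause was not tested. None of these values was called. With 4 mice per group and lifelong deletion, these data give 1 age and cannot separate early from late effects, and low counts such as those of Trem2 add counting error to the spread between mice.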
